A study of Mus musculus with 12 samples.

Results

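Aminoacyl-tRNA synthetases are the enzymes that join each amino acid to its transfer RNA. Their genes were taken by symbol from a table of 17203 mouse genes. Of these, 36 were synthetases, 20 of the cytosolic set and 16 of the mitochondrial set, whose symbols end in 2. The rule held 37 names, of which Mars and Mars1 are the same gene, listed as Mars1. All 36 passed the filter on low values, 10 CPM (counts per 1e6 assigned reads) or more in at least 3 of 12 libraries, as did 9826 genes in all. The members were chosen by name, with no value used as a rule, though earlier results of these data were known.

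The libraries came from primary CD4+ T cells of C57BL/6 mice, in 4 groups of 3. CD3_CD28_ICOS cells were stimulated for 72 h with antibodies to CD3, CD28 and ICOS, and by the labels all of these were soluble. CD3_CD28 cells had plate-bound anti-CD3 and soluble anti-CD28 for 72 h, and CD3 cells had plate-bound anti-CD3 alone for 72 h. Unstimulated cells were taken fresh and not activated. Anti-CD3 engages the T cell receptor complex, and CD28 and ICOS are related costimulatory receptors. Both the soluble form of anti-CD3 and the added antibodies thus set CD3_CD28_ICOS apart from the other stimulated groups, and these cannot be told apart. Stimulation and 72 h of culture cannot be told apart in any comparison with Unstimulated cells. Transduction is mentioned in the design text and in none of the sample labels. Since no label tells if the 3 libraries per group had their own animals or cultures, the p-values reflect only the spread between libraries, which may be technical.

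The cytosolic synthetases supply the ribosomes of the cytosol, and the mitochondrial ones, also encoded in the nucleus, supply the translation of the few proteins encoded by mitochondrial DNA. In mammals several cytosolic synthetases sit in a multi-synthetase complex held together by AIMP scaffold proteins. When amino acids run short or unfolded protein accumulates, phosphorylation of eIF2α favours translation of the transcription factor ATF4, which binds C/EBP-ATF elements in the promoters of amino acid transport, amino acid synthesis and many cytosolic synthetase genes. Activated T cells take up more amino acids and make more protein than resting ones.

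Promoters were searched for the core of that element, TGATGNAA, on both strands, because the cytosolic genes are read below also by a list of synthetases known as ATF4 or CHOP targets. RefSeq promoter sequences (build GRCm38.p6, 250 bases before to 50 bases from the annotated start) were matched by symbol for 27 of the 36 synthetases, 13 cytosolic and 14 mitochondrial. The core was found in 5 of the 13 cytosolic promoters (38.5%), in 0 of the 14 mitochondrial ones and in 1219 of 27025 promoters in all (4.51%). The 5 were Aars, Gars, Iars, Tars and Yars, all among the 8 matched promoters of synthetases listed as ATF4 targets, while 0 of the 5 matched promoters of other cytosolic synthetases held it. Of 15 matched promoters of ATF4 pathway genes, 4 held it. A match is a description of the letters and no site of binding was measured.

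The 150 bases before the start are shown for the 3 synthetases with a match upstream of it, 5′ to 3′ on the strand of the gene, with the match in capitals. It lay 112 bases upstream in Aars (chr8:111033692-111033841, plus strand), 30 bases upstream in Gars (chr6:55037851-55038000, plus strand) and 15 bases upstream in Tars (chr15:11399659-11399808, minus strand). In all 3 the match was on the other strand and appears here reversed and complemented.
Aars: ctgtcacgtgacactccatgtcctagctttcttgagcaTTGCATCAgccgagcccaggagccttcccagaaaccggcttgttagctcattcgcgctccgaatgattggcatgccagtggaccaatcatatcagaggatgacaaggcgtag
Gars: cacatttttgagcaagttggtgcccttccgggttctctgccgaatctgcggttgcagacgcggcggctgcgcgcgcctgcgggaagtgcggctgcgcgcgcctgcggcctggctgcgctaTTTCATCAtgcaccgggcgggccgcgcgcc
Tars: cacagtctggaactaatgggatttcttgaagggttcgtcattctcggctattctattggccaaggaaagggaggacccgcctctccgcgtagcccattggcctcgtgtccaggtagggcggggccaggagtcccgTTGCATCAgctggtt

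In Iars and Yars the match lay just after the start, as did a further one in Aars, and the 30 bases around it are given beside those of the ATF4 target genes Asns and Chac1, where it lay 23 and 193 bases upstream. The windows are chr13:49682126-49682155 (plus strand) for Iars, chr4:129189895-129189924 (plus strand) for Yars, chr6:7693214-7693243 (minus strand) for Asns and chr2:119351038-119351067 (plus strand) for Chac1. The match is in capitals.
Iars: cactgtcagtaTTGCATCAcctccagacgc
Yars: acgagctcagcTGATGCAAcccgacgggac
Asns: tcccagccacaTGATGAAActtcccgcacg
Chac1: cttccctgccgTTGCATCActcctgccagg

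The E-box CACGTG, which MYC and related factors can bind and which reads the same on both strands, was in 4 of the 13 cytosolic promoters (Aars, Farsb, Iars and Tars), in 1 of the 14 mitochondrial ones (Ears2) and in 8.09% of all promoters. It overlapped no match of the core.

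Depth was 11.4 to 37.5 times 1e6 assigned reads per library, so that 1 read was worth 0.0267 to 0.0879 CPM. The CPM are not corrected for gene length, and a level is compared here only between groups for the same gene. In bulk RNA, fewer cells of a type and less RNA per cell cannot be told apart. The 5 CD4 T cell markers (Cd4, Cd3e, Cd3g, Trac and Cd28) were present throughout, at a summed 2074 to 3757 CPM. CD3_CD28 replicate 1 and Unstimulated replicate 3 stood apart. In the first the ribosomal RNA gene CT010467.1 took 11.8% of the library. In the second Fos was at 1275 CPM, against 70.7 and 30.9 CPM in Unstimulated replicates 1 and 2. Markers of other cells varied between groups. The B cell markers Cd79a, Cd79b, Ms4a1 and Pax5 were all tested, and the summed level of these 4 was 120.2 to 360.3 CPM in CD3_CD28_ICOS, 6.00 to 7.47 CPM in CD3_CD28, 163 to 329 CPM in CD3 and 84.3 to 151 CPM in Unstimulated libraries. The 13 pancreatic acinar markers summed to at most 1.67 CPM in any stimulated library, against 2470, 2179 and 476 CPM in Unstimulated replicates 1, 2 and 3. The 5 myeloid markers summed to 0.896 to 11.7 CPM in the stimulated libraries, Lyz2 being at 0 in all CD3_CD28 libraries, and to 118 to 284 CPM in the Unstimulated ones, and the 4 erythroid markers to at most 1.12 CPM and to 89.0 to 158 CPM. The 4 CD8 T and NK cell markers (Cd8a, Cd8b1, Ncr1 and Klrb1c) summed to 38.7 to 77.1 CPM in CD3_CD28_ICOS, 22.7 to 29.7 CPM in CD3_CD28, 23.8 to 28.5 CPM in CD3 and 34.4 to 52.0 CPM in Unstimulated libraries, with Ncr1 at 0 in all CD3_CD28_ICOS and CD3 libraries. Of these, Cd8a was at 46.6, 20.9 and 18.2 CPM in CD3_CD28_ICOS against 1.71, 1.52 and 1.49 CPM in CD3_CD28 libraries, and rose by 3.40 ± 0.34 (limma adjusted p = 2.79e-06). Cd8b1, the only other of the 4 that was tested, was not called in that comparison. It was at 30.2, 23.9 and 20.5 CPM in CD3_CD28_ICOS against 20.6, 28.0 and 25.5 CPM in CD3_CD28 libraries. The proliferation gene Mki67 averaged 1218 CPM in CD3_CD28_ICOS, 858 CPM in CD3_CD28, 1648 CPM in CD3 and 42.0 CPM in Unstimulated libraries. The part of these other cells and of proliferation in the results below was not tested.

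The summed level of the cytosolic set separated the 4 groups, although its genes did not all move together, as given by comparison below. The 20 cytosolic genes summed to 2736, 2445 and 2278 CPM in CD3_CD28_ICOS, 4518, 5116 and 5075 CPM in CD3_CD28, 3862, 3989 and 3931 CPM in CD3, and 1899, 1975 and 1873 CPM in Unstimulated libraries. No group overlapped another, with CD3_CD28 highest and Unstimulated lowest. The mitochondrial set without Lars2, whose level is described apart, summed to 339 ± 24.2 CPM in CD3_CD28_ICOS, 308 ± 28.1 CPM in CD3_CD28, 410 ± 16.8 CPM in CD3 and 346 ± 22.7 CPM in Unstimulated libraries (SD, n = 3 each). Its highest group was CD3 and its lowest CD3_CD28. By an F test in limma among the 3 stimulated groups (9 libraries), 19 of the 20 cytosolic genes and 10 of the 16 mitochondrial genes differed, against 80.7% of all tested genes. The cytosolic gene not called was Qars, for glutamine (adjusted p = 0.0519), and the mitochondrial ones were Aars2, Ears2, Hars2, Lars2, Sars2 and Wars2. By mean level, 11 cytosolic genes were highest in CD3_CD28 and 9 in CD3. The mitochondrial genes were highest in CD3 (9 genes), CD3_CD28 (4 genes) or Unstimulated cells (3 genes).

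**Figure D1:**
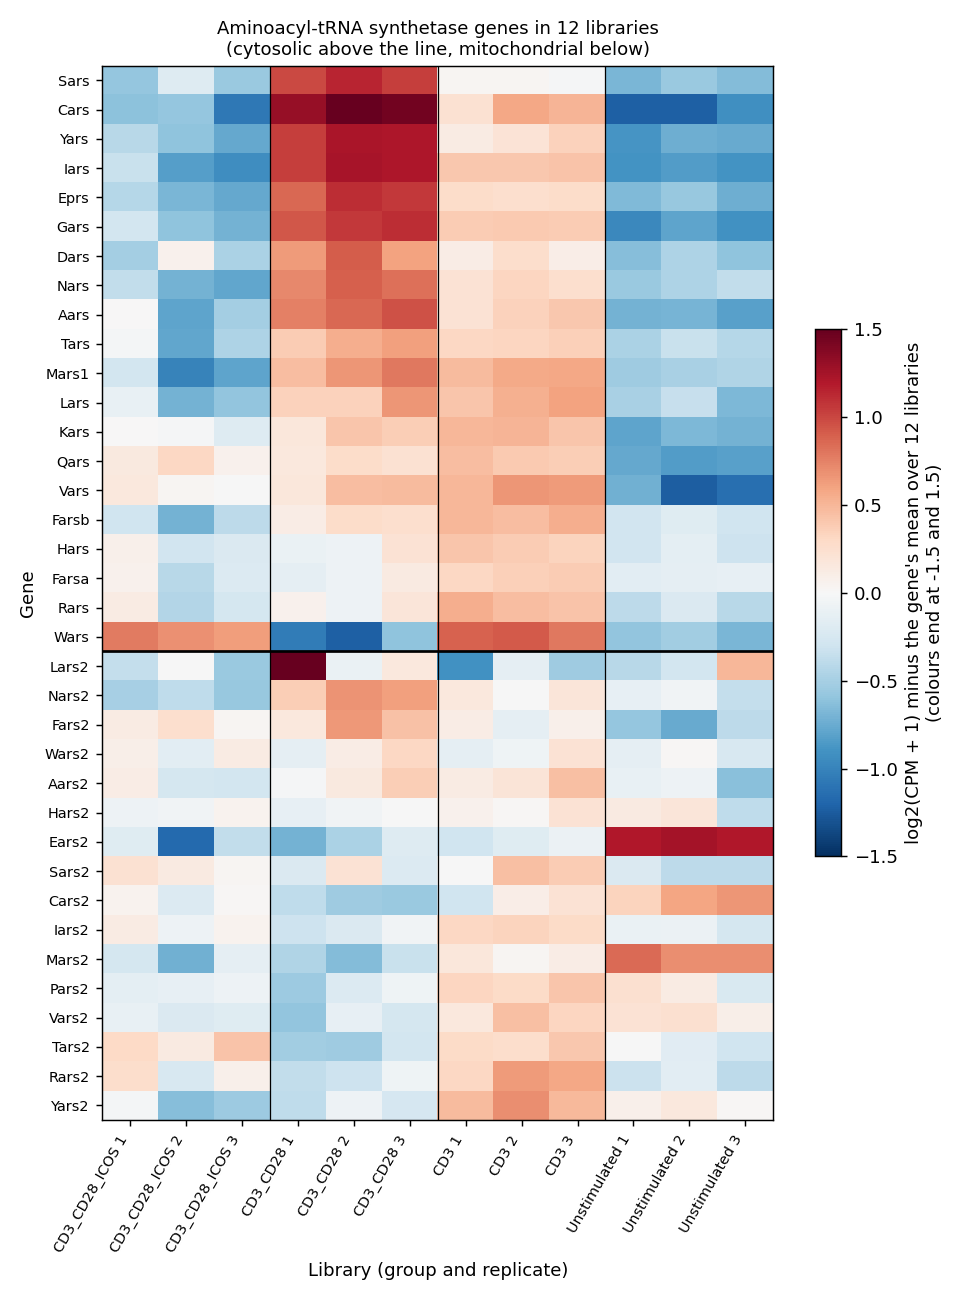
Each row is a synthetase gene and each column a library, with colour for log2(CPM + 1) minus the gene's mean over the 12 libraries, ending at -1.5 and 1.5. Most cytosolic rows are highest in CD3_CD28 or CD3 libraries, Wars is low in CD3_CD28, and Ears2, Mars2 and Cars2 are highest in Unstimulated libraries.

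Every cytosolic synthetase was higher after 72 h of culture on plate-bound anti-CD3 than in fresh cells. All 20 rose in CD3 against Unstimulated, with changes of 0.49 to 1.63 and a median of 1.02 on the log2(CPM + 1) scale, where all tested genes had a median of 0.18 and 43.6% were called higher and 26.3% lower (limma adjusted p under 0.05). For each of the 20, CD3 libraries lay wholly above Unstimulated ones, where 47.6% of all genes were higher and 29.2% lower without overlap. Under quantile normalization and a median of ratios the all-gene median fell by 0.25 and 0.15, and the calls over all genes became 3119 higher and 3766 lower and 3619 higher and 3375 lower, against 4280 higher and 2582 lower as deposited. All 20 cytosolic genes were still called higher under both, with medians of 0.86 and 0.87.

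The valine enzyme gene Vars (chromosome 17, 35000987 to 35016323 of mm10), whose product also binds the elongation factor that delivers charged tRNA, had the largest cytosolic change. It stood at 389, 435 and 429.6 CPM in CD3 against 166, 116 and 125 CPM in Unstimulated libraries. The log2 fold change was 1.63 ± 0.12 (SE, limma adjusted p = 5.36e-08). All 3 CD3 libraries lay above all Unstimulated ones.

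Cars, for cysteine (chromosome 7, 143557230 to 143600091), was at 63.0, 80.6 and 76.7 CPM in CD3 against 22.4, 22.4 and 27.9 CPM in Unstimulated libraries, a change of 1.56 ± 0.14 (limma adjusted p = 3.34e-07). Wars, for tryptophan (chromosome 12, 108860030 to 108894175), was at 190.3, 195 and 178 CPM against 68.1, 71.2 and 63.6 CPM, a change of 1.46 ± 0.13 (limma adjusted p = 1.89e-07). In both genes the groups were separate. The smallest rise was that of Farsa, the catalytic subunit of the 2-subunit phenylalanine enzyme, by 0.49 ± 0.12 (limma adjusted p = 0.00187), and its partner subunit Farsb rose by 0.76 ± 0.10.

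The mitochondrial set was mixed in the same comparison. Of 16 genes 7 rose (Rars2, Sars2, Fars2, Aars2, Tars2, Yars2 and Iars2), 3 fell (Ears2, Mars2 and Cars2) and 6 were not called. These shares are near or below the background given above for rises and near it for falls. The median was 0.29, and it was -0.07 under quantile normalization, where 3 genes rose, and 0.15 under a median of ratios.

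Ears2, the mitochondrial glutamate enzyme gene (chromosome 7, 122037213 to 122067264), was lower in every stimulated group. It was at 9.03, 4.07 and 7.83 CPM in CD3_CD28_ICOS, 5.98, 7.21 and 8.94 CPM in CD3_CD28, and 8.25, 9.07 and 9.72 CPM in CD3, against 25.3, 26.0 and 25.2 CPM in Unstimulated libraries. The 9 stimulated values all lay below the 3 Unstimulated ones and overlapped one another. The log2 fold change from Unstimulated cells was -1.79 ± 0.21 in CD3_CD28_ICOS, -1.68 ± 0.21 in CD3_CD28 and -1.41 ± 0.21 in CD3 cells (limma adjusted p = 7.97e-06, 7.06e-06 and 4.76e-05). These comparisons share the Unstimulated libraries, in which the acinar, myeloid and erythroid markers were also highest. Ears2 overlaps Ubfd1 on the other strand by 90 bases, and whether counting used strand is not given in the sources used here.

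Mars2, for mitochondrial methionine, was likewise lower at 10.4, 7.33 and 11.5 CPM in CD3_CD28_ICOS, 9.06, 7.74 and 9.88 CPM in CD3_CD28 and 14.5, 13.0 and 13.8 CPM in CD3, against 23.8, 21.2 and 21.3 CPM in Unstimulated libraries. Cars2, for mitochondrial cysteine, was at 12.8, 10.5 and 12.4 CPM, 9.14, 8.19 and 8.04 CPM and 9.74, 13.2 and 14.4 CPM in the same 3 stimulated groups, against 15.7, 19.0 and 20.0 CPM in Unstimulated libraries. No stimulated value of either gene reached an Unstimulated one, and 26.2% of all genes were lower without overlap in CD3_CD28_ICOS, 39.9% in CD3_CD28 and 29.2% in CD3 than in Unstimulated cells. Both fell in all 3 comparisons (limma adjusted p = 2.35e-05, 4.85e-06 and 0.00166 for Mars2, and 0.00457, 2.94e-05 and 0.00649 for Cars2, for CD3_CD28_ICOS, CD3_CD28 and CD3 against Unstimulated). Cars2 overlaps Naxd on the other strand by 985 bases.

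With soluble anti-CD28 beside plate-bound anti-CD3, cytosolic genes moved both ways. In CD3_CD28 against CD3, 9 of 20 rose (Sars, Cars, Yars, Iars, Eprs, Gars, Dars, Nars and Aars), 5 fell (Wars, Rars, Farsa, Hars and Farsb) and 6 were not called, with a median of 0.14. All tested genes had a median of -0.24, with 18.7% called higher and 45.7% called lower. Neither quantile normalization nor a median of ratios kept the falls of Rars, Farsa, Hars and Farsb past the threshold. These scalings moved the all-gene median by 0.21 and 0.24, and 1 cytosolic gene (Wars) then fell, with 10 and 11 higher. Over all genes those scalings called 2882 higher and 3109 lower, and 3153 higher and 2807 lower, against 1837 and 4487 as deposited. The 4 B cell markers all fell in the same comparison, to the levels given above.

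Sars, the serine enzyme gene (chromosome 3, 108424865 to 108445210), was at 179, 235 and 182 CPM in CD3_CD28_ICOS, 532, 595 and 551 CPM in CD3_CD28, 273, 273 and 264 CPM in CD3 and 167, 182 and 171 CPM in Unstimulated libraries. CD3_CD28 stood above all others, and the CD3_CD28_ICOS and Unstimulated libraries overlapped. Its change in CD3_CD28 against CD3 was 1.05 ± 0.10, a 2.07-fold higher level on the log2(CPM + 1) scale (limma adjusted p = 1.97e-06).

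Cars was at 34.6, 35.7 and 25.1 CPM in CD3_CD28_ICOS and 134, 159.9 and 148 CPM in CD3_CD28 libraries, against the CD3 values above, a change of 1.00 ± 0.14 in CD3_CD28 against CD3 (limma adjusted p = 5.35e-05). Iars, for isoleucine (chromosome 13, 49682100 to 49734268), was at 104, 74.2 and 68.7 CPM in CD3_CD28_ICOS, 272, 314 and 308 CPM in CD3_CD28, 175, 174 and 177 CPM in CD3 and 70.7, 73.4 and 70.2 CPM in Unstimulated libraries. Its change in CD3_CD28 against CD3 was 0.76 ± 0.12 (limma adjusted p = 0.00016). In both genes CD3_CD28 was separate from, and above, every other group. Of all 20 cytosolic genes, 10 were higher and 8 lower in CD3_CD28 than in CD3 without overlap, as were 21.7% and 50.6% of all genes.

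Yars, for tyrosine, was at 154, 175 and 173 CPM in CD3_CD28 against 81.1, 86.0 and 95.0 CPM in CD3 libraries, a change of 0.93 ± 0.10 (limma adjusted p = 7.11e-06). Eprs, which charges both glutamate and proline tRNA with a single protein, was at 652, 776 and 746 CPM against 432, 428 and 434 CPM, a change of 0.74 ± 0.10 (limma adjusted p = 2.31e-05). Gars, which makes both the cytosolic and the mitochondrial glycine enzyme, was at 381, 417 and 429.8 CPM against 259, 261 and 259 CPM, a change of 0.65 ± 0.10 (limma adjusted p = 0.000115). The groups were separate in each of these. Nars, Dars and Aars, for asparagine, aspartate and alanine, rose by 0.53 to 0.56.

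Wars went the other way and was the largest change of any synthetase in this comparison. It was at 178, 166 and 160.1 CPM in CD3_CD28_ICOS, 49.4, 43.6 and 67.5 CPM in CD3_CD28, 190.3, 195 and 178 CPM in CD3 and 68.1, 71.2 and 63.6 CPM in Unstimulated libraries. The CD3_CD28 values lay with the Unstimulated ones, and the other 2 stimulated groups lay far above both. Wars fell by 1.82 ± 0.13 in CD3_CD28 against CD3 (limma adjusted p = 1.89e-07). Wars, known in human cells as an interferon-inducible gene, overlaps Wdr25 on the other strand by 545 bases. The B cell marker sums given above were likewise low in CD3_CD28 libraries and high in the other stimulated ones, and their part in the Wars result was not tested.

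**Figure D2:**
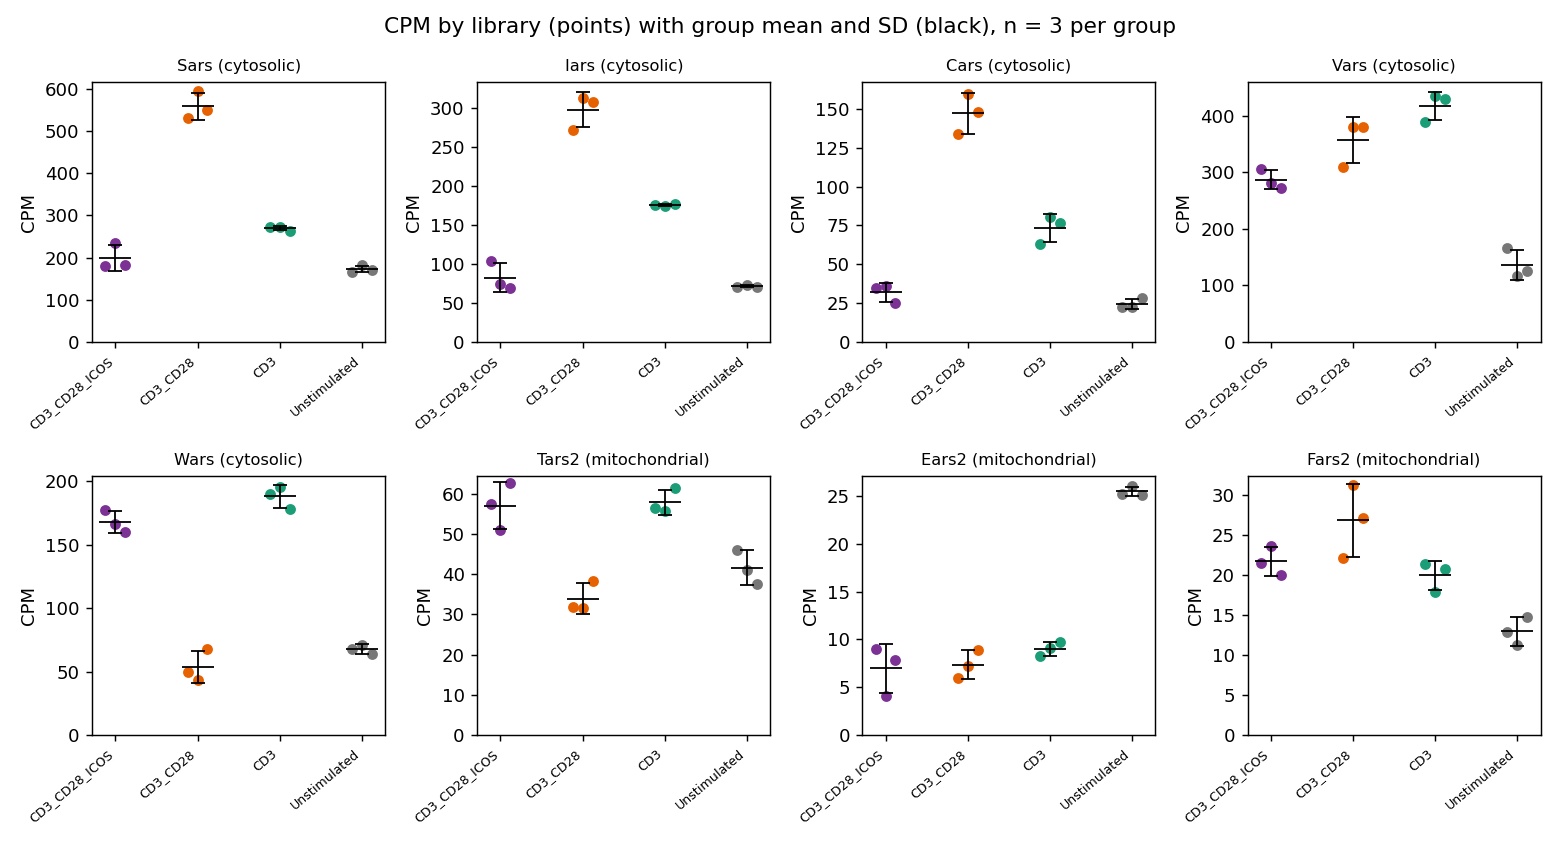
Points are CPM per library on axes that start at 0, with the mean and SD of the 3 libraries of each group in black. Sars, Iars and Cars peak in CD3_CD28, Wars and Tars2 are low there, Vars is high in all stimulated groups and Ears2 is low in all of them.

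The cytosolic genes were also read by the list of ATF4 or CHOP targets. Of the 13 on it, 8 rose and 1 fell (Wars) in CD3_CD28 against CD3 and 4 (Lars, Mars1, Tars and Vars) were not called, with a median of 0.55. Of the 7 others, 1 rose (Dars) and 4 fell, with a median of -0.29, near the all-gene median of -0.24, and the falls of these 4 (Rars, Farsa, Hars and Farsb) did not pass under either other scaling. Of all genes 18.7% rose and 45.7% fell. The list was written with earlier results of these data known, so it is a description of how the members lie. Of the 15 tested genes of the ATF4 pathway, 12 rose and 1 fell (Eif2ak4) in the same comparison, with a median of 1.33.

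Atf4 was at 104, 118 and 111 CPM in CD3_CD28_ICOS, 471, 513 and 481 CPM in CD3_CD28, 150.2, 173 and 159 CPM in CD3 and 99.9, 105 and 158 CPM in Unstimulated libraries. Asns, the asparagine synthetase and a target of ATF4, was at 22.6, 14.8 and 11.0 CPM in CD3_CD28_ICOS, 134, 148 and 150.0 CPM in CD3_CD28, 45.1, 49.5 and 43.3 CPM in CD3 and 1.51, 0.729 and 2.13 CPM in Unstimulated libraries. Both were highest in CD3_CD28 with no overlap, as were Sars, Cars and Iars. Iars was among the synthetases found with the promoter core and Sars and Cars were not, in a search that did not cover every synthetase. Myc, whose product can bind the E-box counted above, was at 136, 97.3 and 118 CPM in CD3_CD28_ICOS, 256, 309 and 316 CPM in CD3_CD28, 264, 243 and 235 CPM in CD3 and 101, 98.5 and 123 CPM in Unstimulated libraries. Its CD3_CD28 values overlapped the CD3 ones, and its CD3_CD28_ICOS values overlapped the Unstimulated ones. The part of ATF4 or MYC in the levels of the synthetases was not tested. Trib3, a pseudokinase that ATF4 and CHOP induce, was at 7.09, 19.6 and 8.08 CPM in CD3_CD28_ICOS, 72.8, 81.2 and 72.8 CPM in CD3_CD28, 7.11, 9.87 and 6.86 CPM in CD3 and 3.42, 2.70 and 3.48 CPM in Unstimulated libraries. Only its CD3_CD28 values stood above 20 CPM. Mars1 and Ddit3, the gene of CHOP, overlap on opposite strands by 69 bases. Ddit3 rose by 2.82 ± 0.14 in CD3_CD28 against CD3, while Mars1 was not called (0.09 ± 0.15, limma adjusted p = 0.587).

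The share of the mitochondrial set lower with anti-CD28 was near that of all genes. Of 16 genes, 2 rose (Nars2 and Fars2), 8 fell (Yars2, Rars2, Tars2, Vars2, Pars2, Mars2, Iars2 and Cars2) and 6 were not called, with a median of -0.42. Of all genes 45.7% fell, and under the other 2 scalings 6 fell and the median was -0.16 and -0.18. Tars2, for mitochondrial threonine (chromosome 3, 95739976 to 95760207), was at 57.5, 51.0 and 62.7 CPM in CD3_CD28_ICOS, 31.9, 31.6 and 38.3 CPM in CD3_CD28, 56.6, 55.6 and 61.5 CPM in CD3 and 46.1, 41.2 and 37.6 CPM in Unstimulated libraries. CD3_CD28 lay below both other stimulated groups without overlap, and Tars2 fell by 0.76 ± 0.11 against CD3 (limma adjusted p = 6.37e-05). Yars2, for mitochondrial tyrosine, was at 8.26, 10.4 and 9.06 CPM in CD3_CD28 against 15.7, 18.4 and 15.9 CPM in CD3 libraries, and fell by 0.79 ± 0.16 (limma adjusted p = 0.000782).

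Nars2, for mitochondrial asparagine, was the mitochondrial gene that peaked in CD3_CD28 without overlap, at 8.66, 9.46 and 8.22 CPM in CD3_CD28_ICOS, 16.6, 20.8 and 19.9 CPM in CD3_CD28, 14.2, 12.6 and 14.5 CPM in CD3 and 11.6, 12.2 and 9.64 CPM in Unstimulated libraries. It rose by 0.44 ± 0.13 in CD3_CD28 against CD3 (limma adjusted p = 0.00917). Fars2, for mitochondrial phenylalanine, was at 22.1, 31.2 and 27.0 CPM in CD3_CD28 against 21.3, 17.8 and 20.7 CPM in CD3 libraries and rose by 0.40 ± 0.14 (limma adjusted p = 0.0233), a call lost without CD3 replicate 2, CD3_CD28 replicate 2 or CD3_CD28 replicate 3.

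In the CD3_CD28_ICOS cells most cytosolic synthetases were lower than in CD3_CD28 cells. Of 20 genes 15 fell, 1 rose (Wars) and 4 were not called (Farsa, Hars, Qars and Rars), with a median of -0.98. All tested genes had a median of 0.13, with 24.5% called lower and 38.5% higher. The quantile and median-of-ratios scalings moved the all-gene median by -0.12 and -0.19, called 3224 higher and 3115 lower and 2780 higher and 3605 lower over all genes against 3787 and 2403 as deposited, and put 19 cytosolic genes lower. The comparison shares its CD3_CD28 libraries with the one above, so the opposite signs of both are not independent.

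Cars fell by 2.19 ± 0.14 in CD3_CD28_ICOS against CD3_CD28 (limma adjusted p = 4.29e-08), Iars by 1.86 ± 0.12 (limma adjusted p = 5.08e-08), Yars by 1.76 ± 0.10 (limma adjusted p = 2.15e-08) and Eprs by 1.64 ± 0.10 (limma adjusted p = 2.09e-08). Cars was 4.56-fold lower on that scale. The groups were separate for all 15 genes that fell, where 25.0% of all genes were lower and 39.8% higher without overlap. Wars rose by 1.66 ± 0.13 (limma adjusted p = 1.52e-07), with no overlap. Qars did not pass the test, at 213, 237 and 201 CPM in CD3_CD28_ICOS against 215, 233 and 225 CPM in CD3_CD28 libraries, with a 95% interval of the log2 fold change of -0.22 to 0.12. Of the 13 synthetases listed as ATF4 targets 12 fell and 1 rose (Wars), and the median was -1.43. Of the 7 others 3 fell and 0 rose, and the median was -0.26. Of the 15 tested ATF4 pathway genes 13 fell and 0 rose, and the median was -1.70. The 4 B cell markers and Cd8a all rose, while Cd8b1 was not called.

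The mitochondrial set showed no common direction here. Of 16 genes 3 rose (Tars2, Cars2 and Iars2), 1 fell (Nars2) and 12 were not called. The median was 0.07, and it was -0.08 and -0.12 under the other 2 scalings, where 1 rose and 4 fell. Tars2 rose by 0.73 ± 0.11 (limma adjusted p = 6.52e-05) and Nars2 fell by 1.04 ± 0.13 (limma adjusted p = 1.2e-05). The groups did not overlap in either gene. The call of Iars2 was lost in 17 of the alternatives.

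Against CD3 cells, 19 of 20 cytosolic synthetases fell in CD3_CD28_ICOS and 0 rose, with a median of -0.76. All tested genes had a median of -0.07, with 28.7% called lower and 18.9% higher. Mars1, for methionine, fell most, at 69.7, 41.7 and 48.4 CPM in CD3_CD28_ICOS against 118, 125 and 127 CPM in CD3 libraries, a change of -1.23 ± 0.15 (limma adjusted p = 3.03e-05). Wars was the gene not called (-0.16 ± 0.13, limma adjusted p = 0.314). All 20, Wars included, were lower without overlap, as were 34.7% of all genes. Of the mitochondrial genes 7 fell (Yars2, Nars2, Rars2, Mars2, Vars2, Pars2 and Iars2) and 0 rose, with a median of -0.33.

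**Figure D3:**
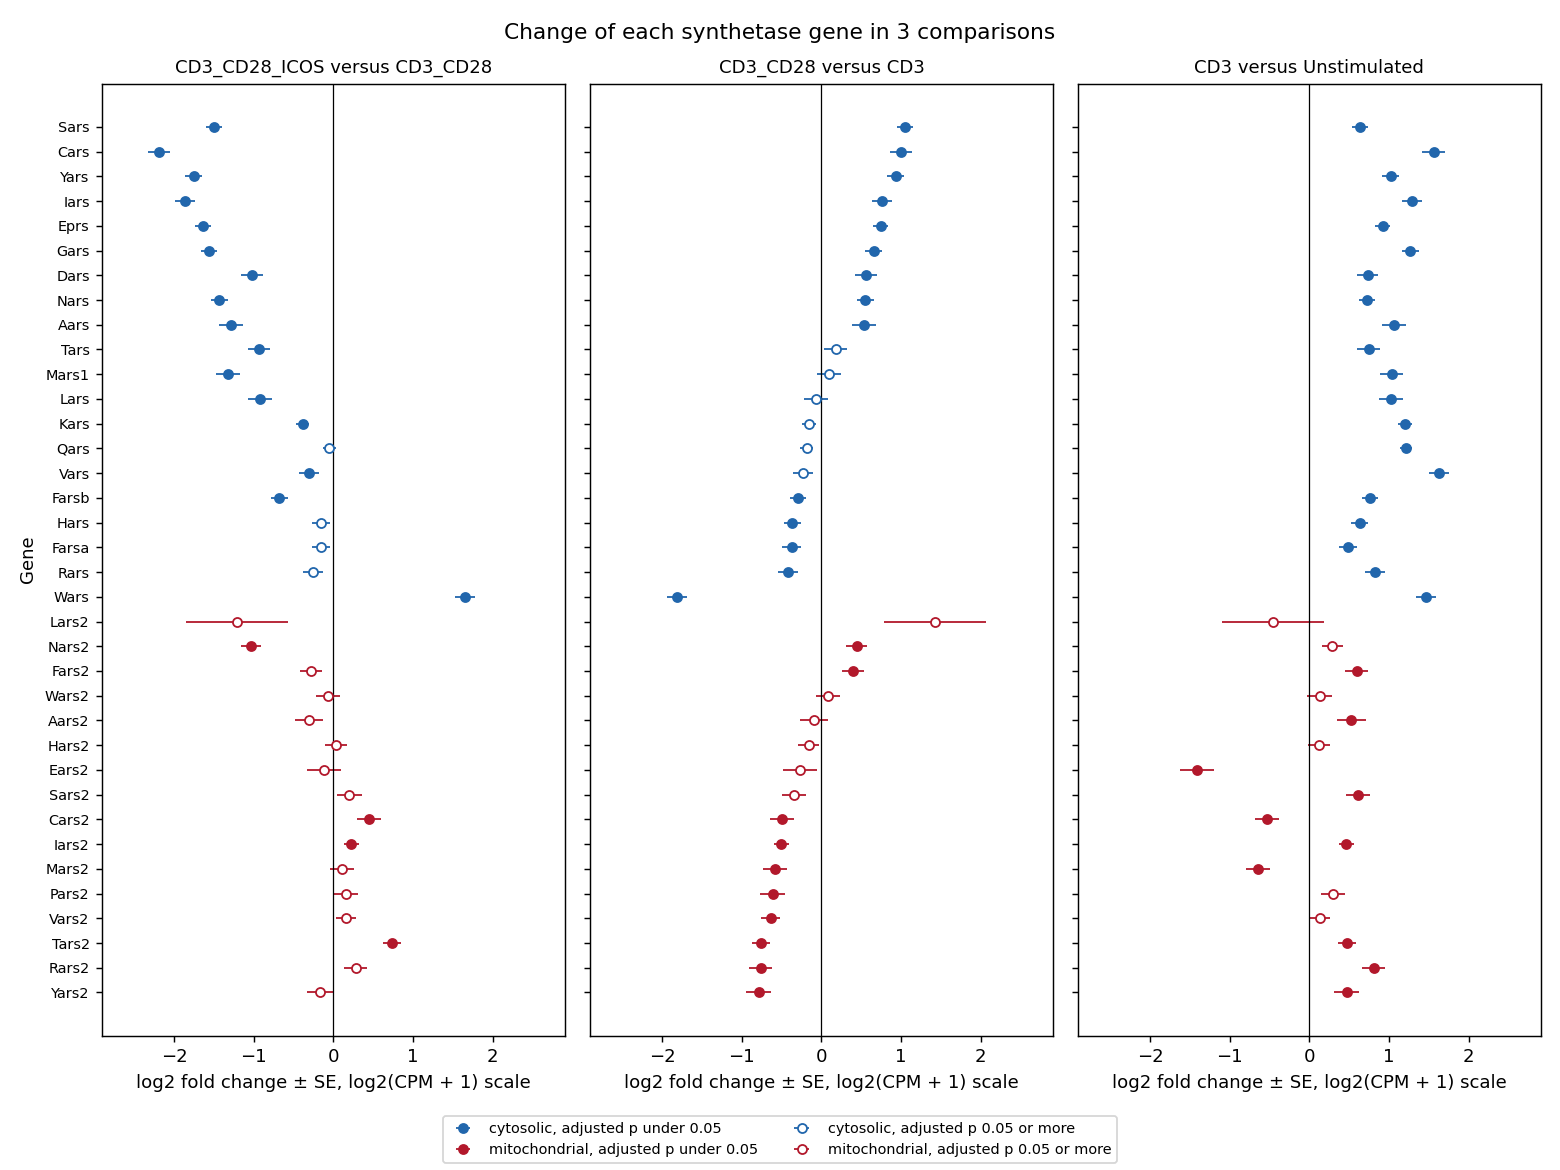
Points are log2 fold changes with their SE on the log2(CPM + 1) scale in 3 comparisons, n = 3 libraries per group, cytosolic genes in blue and mitochondrial ones in red, filled where the limma adjusted p was under 0.05. All 20 cytosolic points are filled and above 0 in CD3 against Unstimulated, and Wars is opposite to Sars, Cars and Yars in the other 2 panels.

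Against Unstimulated cells, CD3_CD28_ICOS cells kept few of the cytosolic rises. Of 20 genes 6 rose (Wars, Vars, Qars, Kars, Gars and Cars), 0 fell and 14 were not called, a share of rises near the 35.6% of all genes called higher (23.7% were called lower), and under either other scaling 2 cytosolic genes fell. The median was 0.18, and 0.08 over all genes. Over all genes the other scalings called 2735 higher and 3487 lower, and 3097 higher and 3171 lower, against 3500 and 2332 as deposited. Qars was at 113, 107 and 109 CPM in Unstimulated libraries, and its 3 CD3_CD28_ICOS values given above lay above all of these, a change of 0.98 ± 0.08 (limma adjusted p = 1.76e-07). Kars, for lysine, which makes both the cytosolic and the mitochondrial enzyme from the same gene, was at 234, 229.7 and 203 CPM in CD3_CD28_ICOS against 134, 145 and 142 CPM in Unstimulated libraries, a change of 0.66 ± 0.09 (limma adjusted p = 1.87e-05). The values of Cars overlapped and its call was lost in 9 of the alternatives. Among mitochondrial genes 3 rose (Fars2, Sars2 and Tars2) and 5 fell (Ears2, Mars2, Cars2, Yars2 and Vars2), with a median of -0.08.

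By the summed level and the median change of the cytosolic set, CD3_CD28 cells stood furthest from Unstimulated ones. Of 20 cytosolic genes 18 rose, 1 fell (Wars) and Farsa was not called, with a median of 1.2, where all tested genes had a median of -0.04, 36.1% were called higher and 39.1% lower. Cars rose by 2.56 ± 0.14, Iars by 2.04 ± 0.12, Yars by 1.95 ± 0.10 and Gars by 1.92 ± 0.10 (limma adjusted p = 2.23e-09, 4.54e-09, 1.55e-09 and 1.58e-09). Wars fell by 0.36 ± 0.13 (limma adjusted p = 0.0208) with overlapping values, a call lost under a median of ratios and without Unstimulated replicate 2, CD3_CD28 replicate 1 or CD3_CD28 replicate 2. Of 16 mitochondrial genes 3 rose (Fars2, Nars2 and Aars2) and 5 fell (Ears2, Mars2, Cars2, Vars2 and Tars2). Their median of -0.04 equalled that of all genes to 2 decimals, and it was 0.06 under a median of ratios.

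Whether the enzymes for one amino acid moved by different amounts in the cytosol and in mitochondria was tested on the ratio of both genes. The 16 pairs, with Eprs entering for glutamate and for proline, were added as rows of log2((cytosolic CPM + 1)/(mitochondrial CPM + 1)) to the whole table, and p-values were adjusted over all of its rows. The trend option of limma took the expected spread of each ratio from its mean, as for a gene of that level. Ratio SEs, p-values and counts of calls thus rest in part on a spread not fitted to ratios. For Iars/Iars2 the SE was 0.31, where its SDs over 3 libraries were 0.03 to 0.26. Against Unstimulated cells the ratio rose in 6 pairs and fell in 1 in CD3_CD28_ICOS, rose in 11 and fell in 2 in CD3_CD28, and rose in 10 and fell in 0 in CD3 cells. It rose in 10 pairs and fell in 2 (Wars/Wars2 and Farsa/Fars2) in CD3_CD28 against CD3. In CD3_CD28_ICOS it fell in 12 pairs and rose in 1 (Wars/Wars2) against CD3_CD28, and fell in 6 and rose in 0 against CD3. No ratios of other gene pairs were formed, so these counts have no background share to be read against.

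The log2 ratio Iars/Iars2 was 0.04, -0.24 and -0.49 in CD3_CD28_ICOS, 1.84, 1.96 and 1.77 in CD3_CD28, 0.60, 0.57 and 0.63 in CD3 and -0.29, -0.25 and -0.13 in Unstimulated libraries. The ratio was highest in CD3_CD28 and overlapped between CD3_CD28_ICOS and Unstimulated cells. It rose by 1.26 ± 0.31 in CD3_CD28 against CD3 (limma adjusted p = 0.00328). Iars2 overlaps Rab3gap2 on the other strand by 2035 bases.

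The ratio Tars/Tars2 was 0.64, 0.07 and 0.09 in CD3_CD28_ICOS, 1.88, 2.06 and 1.86 in CD3_CD28, 1.01, 1.04 and 0.94 in CD3 and 0.51, 0.82 and 0.85 in Unstimulated libraries. It rose by 0.94 ± 0.28 in CD3_CD28 against CD3 (limma adjusted p = 0.0105) although Tars alone was not called (0.18 ± 0.14), since Tars2 fell. Of the glutamate pair Eprs/Ears2 the log2 ratio was 4.73, 5.46 and 4.58 in CD3_CD28_ICOS, 6.55, 6.56 and 6.23 in CD3_CD28, 5.55, 5.41 and 5.34 in CD3 and 3.11, 3.16 and 3.05 in Unstimulated libraries. All 9 stimulated values lay above all Unstimulated ones, and the change was 2.33 ± 0.18 in CD3 against Unstimulated (limma adjusted p = 8.84e-08).

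The arginine pair Rars/Rars2 was called in 1 of the 6 comparisons. Its log2 ratio was 2.06, 2.01 and 1.86 in CD3_CD28_ICOS, 2.64, 2.44 and 2.46 in CD3_CD28, 2.44, 2.02 and 2.05 in CD3 and 2.13, 2.15 and 2.18 in Unstimulated libraries, and the call was in CD3_CD28_ICOS against CD3_CD28 (-0.54 ± 0.19, limma adjusted p = 0.023). The Hars/Hars2 ratio was called in none of the 6 comparisons. In CD3 against Unstimulated it changed by 0.51 ± 0.25 (limma adjusted p = 0.0841), although all CD3 values lay above all Unstimulated ones. Its SDs over 3 libraries were 0.13 to 0.26, and the SE rests in part on a spread not fitted to ratios. The missing calls thus do not show an unchanged ratio. Both genes also overlap head to head by 199 bases on chromosome 18, so reads of one may count for the other.

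**Figure D4:**
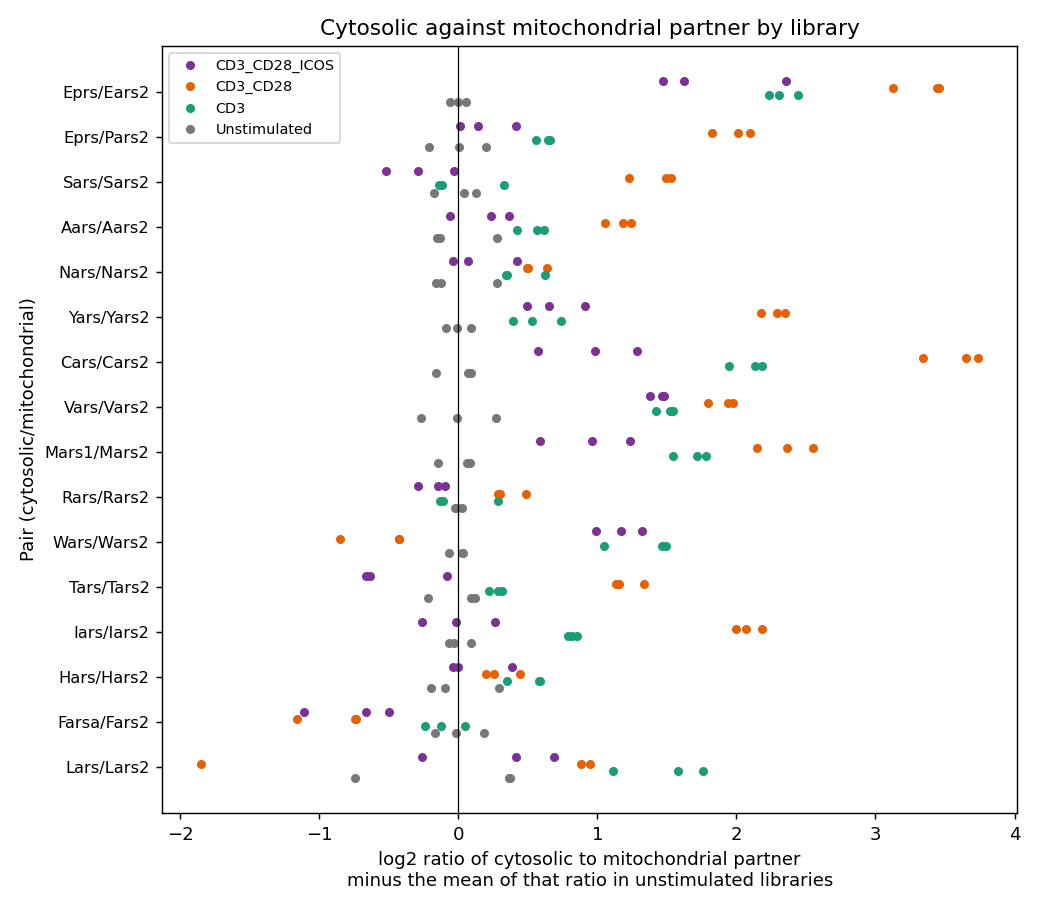
Points are libraries, and the horizontal axis is the log2 ratio of cytosolic to mitochondrial CPM (each + 1) minus the mean of that ratio in the Unstimulated libraries. CD3_CD28 points lie furthest to the right in most pairs, 3.58 on average for Cars/Cars2, and left of 0 for Wars/Wars2 and Farsa/Fars2.

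Within the cytosolic set, the 8 synthetases of the multi-synthetase complex (Eprs, Iars, Lars, Mars1, Qars, Rars, Kars and Dars) all rose in CD3_CD28 and in CD3 against Unstimulated cells, where 36.1% and 43.6% of all genes rose. In CD3_CD28 against CD3, 3 rose (Iars, Eprs and Dars), 1 fell (Rars) and 4 were not called, with a median of 0.01, where 18.7% of all genes rose and 45.7% fell. The 12 outside the complex divided into 6 higher and 4 lower, with a median of 0.36. Against CD3, all 8 fell in CD3_CD28_ICOS cells, as did 11 of the 12 outside it and 28.7% of all genes.

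The 3 scaffold genes of the complex are Aimp1, Aimp2 and Eef1e1. Aimp2 was at 12.2, 15.0 and 9.07 CPM in CD3_CD28_ICOS, 33.0, 36.1 and 34.7 CPM in CD3_CD28, 29.5, 31.2 and 21.4 CPM in CD3 and 15.0, 18.1 and 14.8 CPM in Unstimulated libraries. Eef1e1 was at 18.1, 14.5 and 17.2 CPM in CD3_CD28_ICOS, 42.3, 43.8 and 54.9 CPM in CD3_CD28, 33.7, 31.7 and 29.1 CPM in CD3 and 22.5, 26.8 and 21.8 CPM in Unstimulated libraries. Both peaked in CD3_CD28 and were lowest, or overlapped the lowest group, in CD3_CD28_ICOS. Aimp1 also peaked in CD3_CD28, at 93.3, 117 and 101 CPM in CD3_CD28_ICOS, 128, 134 and 130 CPM in CD3_CD28, 107, 97.7 and 97.9 CPM in CD3 and 52.4, 57.7 and 49.5 CPM in Unstimulated libraries. All 3 scaffold genes fell in CD3_CD28_ICOS against CD3_CD28, Aimp1 by 0.33 ± 0.09 (limma adjusted p = 0.0074), where 24.5% of all genes fell. In CD3_CD28_ICOS against Unstimulated, Aimp1 rose by 0.95 ± 0.09 (limma adjusted p = 1.39e-06), where Eef1e1 fell by 0.49 ± 0.13 (limma adjusted p = 0.00479) and Aimp2 was not called.

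Lars2, for mitochondrial leucine (chromosome 9, 123366927 to 123462667), was called in none of the 6 comparisons, and 1 library decided its CD3_CD28 mean. It was at 533, 679.8 and 464 CPM in CD3_CD28_ICOS, 4250.3, 638 and 766 CPM in CD3_CD28, 365, 623 and 473 CPM in CD3 and 513, 566 and 971 CPM in Unstimulated libraries. The highest value was in CD3_CD28 replicate 1 and the next in Unstimulated replicate 3, which were also highest for the ribosomal RNA gene CT010467.1, at 11.8% and 3.20% of the library. Lars2 was 2.71 to 4.06% of the CPM of CT010467.1 in all 12 libraries, so that a level of Lars2 alone could not be separated from that gene here.

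**Figure D5:**
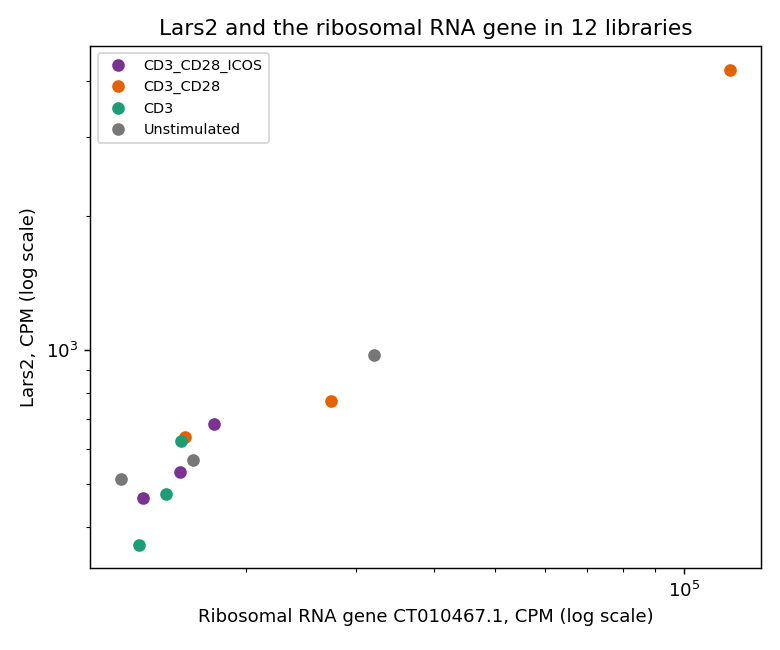
Points are the 12 libraries, with the CPM of the ribosomal RNA gene CT010467.1 on the horizontal axis and those of Lars2 on the vertical axis, both on log scales. CD3_CD28 replicate 1, at 4250.3 CPM of Lars2, is at the top right and the other 11 libraries lie at 971 CPM or below.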

How the data were processed

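RNA-seq of the 12 libraries was used as the authors deposited it, as CPM values per gene with an offset of 1e-04. The values of each column sum to 1e6, and no correction for gene length was made. The mouse build mm10, DESeq2 and Partek (version 10) are named in the submitters' processing notes. Aligner, counter, annotation and use of strand: not given in the sources used. Groups and replicate numbers came from the sample titles, and 0 sample columns were left unused.

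The filter kept 9826 of 17203 genes, those reaching 10 CPM in 3 or more libraries. Their log2(CPM + 1) values were fitted by limma 3.58.1 (R 4.3.3), all 12 libraries together and each group with its own mean, with trend and robust options on. The pseudocount of 1 understates changes of low genes. Tests were two-sided, and p-values were adjusted by the Benjamini-Hochberg method per comparison, with a threshold of 0.05. The fit was also run on simulated data with far fewer changed genes than were called here, as a check of the code only. The pass rule of that check was changed after a run failed it, and no result rests on it. Errors are SDs over 3 libraries or limma SEs, and changes are log2 fold changes, with fold values as their antilogs. Intervals are at 95%.

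Depth was estimated from the steps between low CPM values. Only 76.3 to 81.3% of values up to 1.2 CPM came within 0.02 steps of a whole multiple, so read counts were not recovered and no count test was run. The authors also deposited comparisons of their own, with log2 ratios, false discovery rates and p-values per the file headers, for groups named Combo_Costim, PB_CD3, PB_CD3_CD28 and Control. It was used only for counts of their calls.

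The members and gene lists were chosen with earlier results of these data known. Every synthetase and every gene of those lists found in the table could be named. Promoters came from RefSeq tables of build GRCm38.p6. Replicate numbers were not taken as pairs. The alternatives were 2 pseudocounts, 2 filters, 2 scalings, a replicate block, other limma settings, the 6 libraries compared alone, and leaving out each library. A gene of the B cell list and one of the lists around the synthetases are not reported here.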

Additional observations from a re-analysis of the deposited data

How the results depend on the processing

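Recomputation under 23 alternatives left the 141 called changes of single synthetases in the same direction in all 3231 values, with 134 no longer past the threshold. Calls were lost most often for Iars2 in CD3_CD28_ICOS against CD3_CD28 (17 alternatives) and Hars in CD3_CD28 against Unstimulated (11). The 2 alternatives without the ribosomal RNA gene, and without CD3_CD28 replicate 1 and Unstimulated replicate 3, were chosen after seeing the data. In CD3 against Unstimulated the cytosolic median was 0.86 by quantile normalization and 0.87 by median of ratios, and the mitochondrial one was -0.0735 (with 3 genes higher) and 0.15. In CD3_CD28 against Unstimulated 0 cytosolic genes were lower and 5 mitochondrial ones higher under a median of ratios, and 0 cytosolic genes were lower without both libraries. In CD3_CD28_ICOS against Unstimulated 2 cytosolic genes were lower under either scaling, the mitochondrial median was -0.27 under quantile normalization, and 2 paralogue ratios were lower with a pseudocount of 5, with a filter of 1 CPM, with no filter and without trend and robust estimation. In CD3_CD28 against CD3 the cytosolic genes lower were 1 under either scaling and 3 without both libraries, the cytosolic median was 0.32 (quantile), 0.39 (median of ratios) and 0.21 (without both libraries), and the mitochondrial one was -0.16 and -0.18 under the scalings. In CD3_CD28_ICOS against CD3_CD28 1 mitochondrial gene was higher and 4 lower under either scaling, with medians of -0.0783 and -0.12, and 2 were lower without the ribosomal RNA gene or without both libraries. In CD3_CD28_ICOS against CD3, 3 ratios were lower with a pseudocount of 0.1. The cause was not tested.

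Leaving out 1 library gave ranges of 0 to 1 cytosolic and 3 to 6 mitochondrial genes lower in CD3_CD28 against Unstimulated. In CD3_CD28_ICOS against Unstimulated it gave 0 to 3 cytosolic genes lower, 2 to 5 mitochondrial genes higher and 2 to 6 lower, a mitochondrial median of -0.0841 to 0.0949 and 0 to 1 ratio lower. In CD3_CD28 against CD3 it gave a cytosolic median of 0.0735 to 0.21, 1 to 2 mitochondrial genes higher and 1 to 2 ratios lower. In CD3_CD28_ICOS against CD3_CD28 it gave 1 to 4 mitochondrial genes higher and 1 to 2 lower, and against CD3 4 to 8 mitochondrial genes lower, with a median of -0.39 to -0.18, and 2 to 7 ratios lower. The counts that moved by over 1.5 times, and the medians by over their spread, did so in CD3_CD28 against Unstimulated without Unstimulated replicate 1 or 2 or CD3_CD28 replicate 1 or 2, and in CD3_CD28_ICOS against Unstimulated without Unstimulated replicate 1 or 2, CD3 replicate 2 or 3, or any CD3_CD28_ICOS replicate, replicate 1 giving the 3 cytosolic falls. In CD3_CD28 against CD3 they did so without CD3 replicate 2 or 3 or any CD3_CD28 replicate, in CD3_CD28_ICOS against CD3_CD28 without CD3_CD28 replicate 1 or 2 or CD3_CD28_ICOS replicate 1 or 3, and against CD3 without any CD3 replicate or CD3_CD28_ICOS replicate 2 or 3.

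Of 18 same-numbered pairs of libraries, 6 had deviations that correlated above 0.1 (r from -0.0999 to 0.408), 5 of them among the 9 pairs of stimulated libraries, and a library correlated best with its own number in 16 of 36 combinations with another group. For replicates 1, 2 and 3, r was 0.088, 0.408 and 0.335 between CD3 and CD3_CD28_ICOS, and 0.113, 0.205 and 0.058 between CD3 and CD3_CD28. It was -0.0999, 0.194 and 0.058 between CD3_CD28 and CD3_CD28_ICOS, and 1 of the 9 pairs with an Unstimulated library was above 0.1. As not every pair was above 0.1 in any comparison, replicate number was left out of the main fit. That rule does not show that same-numbered stimulated libraries were unmatched, and the main fit made no allowance for matching. With the replicate block 6795 genes were called in CD3 against Unstimulated, against 6862 without it, all 20 cytosolic genes rose as before, and 14 instead of 15 cytosolic genes fell in CD3_CD28_ICOS against CD3_CD28. The lowest synthetase value was 4.07 CPM, where 1 read was worth at most 0.0879 CPM. Further limits are the 3 libraries per group, genes overlapping on opposite strands, and the uncultured Unstimulated cells.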

Other observations

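Genes that handle tRNA around the synthetases followed the cytosolic set only in part. Xpot, which exports tRNA from the nucleus, was at 54.1, 36.0 and 47.4 CPM in CD3_CD28_ICOS, 94.6, 79.4 and 117 CPM in CD3_CD28, 88.7, 89.4 and 87.1 CPM in CD3 and 37.0, 40.8 and 34.1 CPM in Unstimulated libraries. It rose by 1.23 ± 0.15 in CD3 against Unstimulated (limma adjusted p = 6.29e-06) and fell by 1.07 ± 0.15 in CD3_CD28_ICOS against CD3_CD28 (limma adjusted p = 3.5e-05). Of the 10 tested genes of this group 3 rose and 0 fell in CD3 against Unstimulated, a share of rises below the 43.6% of all genes. Tarsl2, a second cytosolic threonine enzyme gene, fell by 1.10 ± 0.15 in CD3_CD28_ICOS against CD3_CD28 (limma adjusted p = 2.19e-05).

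Delivery of charged tRNA to the ribosome and later steps there were represented together by 9 genes. Eef2, the translocation factor, rose by 1.00 ± 0.08 in CD3_CD28 and by 0.48 ± 0.08 in CD3 cells against Unstimulated (limma adjusted p = 3.76e-08 and 7.68e-05). Of the 9 genes, 6 rose and 0 fell in either comparison, where 36.1% and 43.6% of all genes rose. In CD3_CD28_ICOS against CD3_CD28, 4 fell (Eef2, Eef1a1, Eef1d and Eef1g) and 0 rose, where 24.5% of all genes fell and 38.5% rose.

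In the authors' deposited table, at a false discovery rate under 0.05, Combo_Costim against PB_CD3_CD28 had 1 cytosolic gene higher and 14 lower, and 1 mitochondrial gene higher and 0 lower, where 12.6% of the 17144 genes with a rate were higher and 6.89% lower. PB_CD3 against Control had 19 cytosolic genes higher and 0 lower, and 0 mitochondrial genes higher and 1 lower in the authors' deposited table, where 16.9% of genes were higher and 9.16% lower. The same authors' deposited table gave 1 cytosolic gene higher and 9 lower, and 2 mitochondrial genes higher and 0 lower, for PB_CD3 against PB_CD3_CD28, where 11.8% were higher and 5.14% lower. For Combo_Costim against Control it gave 4 cytosolic genes higher and 0 lower, and 0 mitochondrial genes higher and 1 lower, where 12.4% were higher and 5.73% lower. For PB_CD3_CD28 against Control 1 mitochondrial gene was higher and 2 were lower, and for Combo_Costim against PB_CD3 0 were called. With groups matched by name, the authors' deposited table called fewer mitochondrial genes than limma in every comparison, and a smaller share of all genes.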
